A study of Rattus norvegicus with 4 samples.

Results

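The genes described here carry angiogenic signals or mark the fenestrated capillaries of the pituitary: the ligands Vegfa, Angpt1, Angpt2 and Apln, the receptors Kdr, Flt1, Tek and Aplnr, the diaphragm gene Plvap and the tip cell gene Esm1. They were chosen by their symbols and are 10 of the 32883 genes in the deposited count matrix. Their unique molecular identifier (UMI) counts were followed in the endothelial-like cells of each library and in the other cell classes, which are the possible sources of the ligands.

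Vascular endothelial growth factor A, encoded by Vegfa, acts on endothelial cells through the receptor tyrosine kinases KDR, the main signalling receptor, and FLT1, a high-affinity receptor that also limits how much ligand reaches KDR. The angiopoietins act on the receptor tyrosine kinase encoded by Tek: ANGPT1 is an activating ligand made by cells around the vessel, and ANGPT2 acts as an activator or an antagonist depending on context. Apelin, encoded by Apln, binds the G protein-coupled receptor encoded by Aplnr. PLVAP forms the diaphragms of capillary fenestrae, the pores through which pituitary hormones pass into the blood, and ESM1 is a secreted proteoglycan known from sprouting tip cells.

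The cells came from female Sprague Dawley rats aged 75 days that were cycling at random. In 1 preparation 30 whole pituitaries were pooled, dispersed with trypsin and EDTA, and loaded on 2 lanes, so the 2 whole-gland libraries are technical repeats of 1 cell suspension. In the other preparation 30 glands were dissected into anterior and posterior pituitary, and each pool was loaded on 1 lane. No group carried a treatment or a genetic change. Pooling leaves no value for any single animal, and p-values below measure the spread between 2 preparations (n = 2), not between rats.

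Of 32455 barcodes, 19793 cells were kept: 5508 in the anterior library, 3829 in the posterior library, and 5541 and 4915 in whole-gland lanes 1 and 2. The limit of 20% mitochondrial UMIs was exceeded by 45.4% of posterior barcodes, against 27.2% to 27.9% in the other libraries. Median depth was 9556 to 10604 UMIs per cell. Endothelial-like cells numbered 571, with 78 in the anterior library (1.42% of its cells), 239 in the posterior library (6.24%), and 151 and 103 in the whole-gland lanes. Their median depth was lowest in the posterior library, at 4756 UMIs, and 7726 to 9366 elsewhere. All 9 measured endothelial markers were above 0 in each library, with summed levels of 4986 to 6429 CPM (UMIs scaled to 1000000 UMIs of the same cells). The class was named from these markers, so their presence describes the label and does not test it. All 9 were also above 0 in fibroblast-like cells over all libraries, at a summed 904 CPM. Hormone cells made up 28.6% of the posterior library, so a cell of that library is not certain to come from the posterior lobe. Endothelial-like cells also held RNA of other cells: 19.6% had a globin UMI, and 34.5% had UMIs of at least 2 mural or 2 fibroblast markers. Between 2 and 10 barcodes were shared by any pair of libraries, and none of these was endothelial-like in both.

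The stretches before the annotated starts of 5 genes are printed because the results turn on them: 2 VEGF receptors, the diaphragm gene, the ligand Vegfa and the tip cell gene. Each is the 250 bases before a RefSeq start on the GRCr8 assembly, 5′ to 3′ on the gene's strand, and capitals mark matches to the motifs searched on both strands: the hypoxia response core ACGTG, the ETS motif CCGGAA, the GC box GGGCGG and the TATA box motif TATAAA. RefSeq gave such windows for 6 of the 10 genes.
Kdr (chr14:32571813-32572062, plus strand): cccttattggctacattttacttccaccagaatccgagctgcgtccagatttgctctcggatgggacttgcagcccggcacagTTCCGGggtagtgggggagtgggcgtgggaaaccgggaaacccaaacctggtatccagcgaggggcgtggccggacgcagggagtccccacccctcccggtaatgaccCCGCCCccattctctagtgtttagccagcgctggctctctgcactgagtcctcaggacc
Flt1 (chr12:12333180-12333429, plus strand): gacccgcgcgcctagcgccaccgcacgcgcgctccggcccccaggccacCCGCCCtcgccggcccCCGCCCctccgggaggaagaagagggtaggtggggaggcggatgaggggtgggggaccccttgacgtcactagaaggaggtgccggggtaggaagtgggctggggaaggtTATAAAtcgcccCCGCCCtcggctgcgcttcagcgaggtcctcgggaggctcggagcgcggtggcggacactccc
Plvap (chr16:18231280-18231529, minus strand): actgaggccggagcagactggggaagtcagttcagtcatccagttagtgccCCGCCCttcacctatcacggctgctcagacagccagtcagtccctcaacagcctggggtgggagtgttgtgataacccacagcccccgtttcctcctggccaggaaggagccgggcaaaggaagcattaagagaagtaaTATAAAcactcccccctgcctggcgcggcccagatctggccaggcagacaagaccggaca
Vegfa (chr9:22452604-22452853, plus strand): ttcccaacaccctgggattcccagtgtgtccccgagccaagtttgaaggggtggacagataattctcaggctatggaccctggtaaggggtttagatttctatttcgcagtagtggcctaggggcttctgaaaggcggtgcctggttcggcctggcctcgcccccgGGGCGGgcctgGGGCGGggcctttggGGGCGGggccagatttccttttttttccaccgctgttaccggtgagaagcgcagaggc
Esm1 (chr2:46609003-46609252, plus strand): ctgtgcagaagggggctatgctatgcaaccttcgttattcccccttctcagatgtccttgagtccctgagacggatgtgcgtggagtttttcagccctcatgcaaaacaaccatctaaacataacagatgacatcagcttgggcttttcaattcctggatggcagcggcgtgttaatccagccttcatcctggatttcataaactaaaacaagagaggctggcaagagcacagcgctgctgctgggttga
Kdr held the only CCGGAA match of the 6 genes, read on the opposite strand as TTCCGG, 167 bases before the start. Flt1 and Plvap each held TATAAA, 75 and 60 bases before the start. GGGCGG was in the printed windows of Vegfa, with 3 matches, and of Kdr, Flt1 and Plvap, where it is read on the opposite strand as CCGCCC. The printed Esm1 window held none of the 4 motifs, and no window of the 6 genes held ACGTG. Among all 33469 RefSeq windows of this length, 16.6% held ACGTG, 12.6% CCGGAA, 30.5% GGGCGG and 12.9% TATAAA, so single matches are common, and none is shown to be a site.

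The receptor and diaphragm genes were concentrated in the endothelial-like cells of every library. Kdr (ENSRNOG00000046829) stood at 1080.2 CPM in the anterior library, 1123 in the posterior library, and 1399.7 and 1334 in the whole-gland lanes. Summed over all cells outside this class, Kdr stood at 0.481, 1.91, 0.803 and 1.02 CPM in the same order, so no library's endothelial value approached the rest. Plvap (ENSRNOG00000017676) was the most abundant gene of the set, at 2929 CPM in the anterior library, 4476 in the posterior library, and 3880.0 and 3501 in the whole-gland lanes. A Plvap UMI was found in at least 96.2% of endothelial-like cells, against 0.613% to 2.21% of lactotroph-like cells, a deep class that should lack it. The source of the Plvap UMIs in lactotroph-like cells was not tested.

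Flt1 ran from 611 CPM in the anterior library through 713 and 922 in the whole-gland lanes to 1416 in the posterior library. Tek was lowest where Flt1 was highest, with 344 CPM in the posterior library, 502 in the anterior library, and 522 and 453 in the whole-gland lanes. Aplnr stood at 313 CPM in the posterior library against 735, 757 and 747 in the anterior and whole-gland libraries, so the posterior library was the lowest for Tek and Aplnr and the highest for Flt1. Between 94.7% and 99.6% of all UMIs of Kdr, Flt1, Tek, Aplnr and Plvap in a library lay in the endothelial-like cells, which were 1.42% to 6.24% of the cells.

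**Figure D1:**
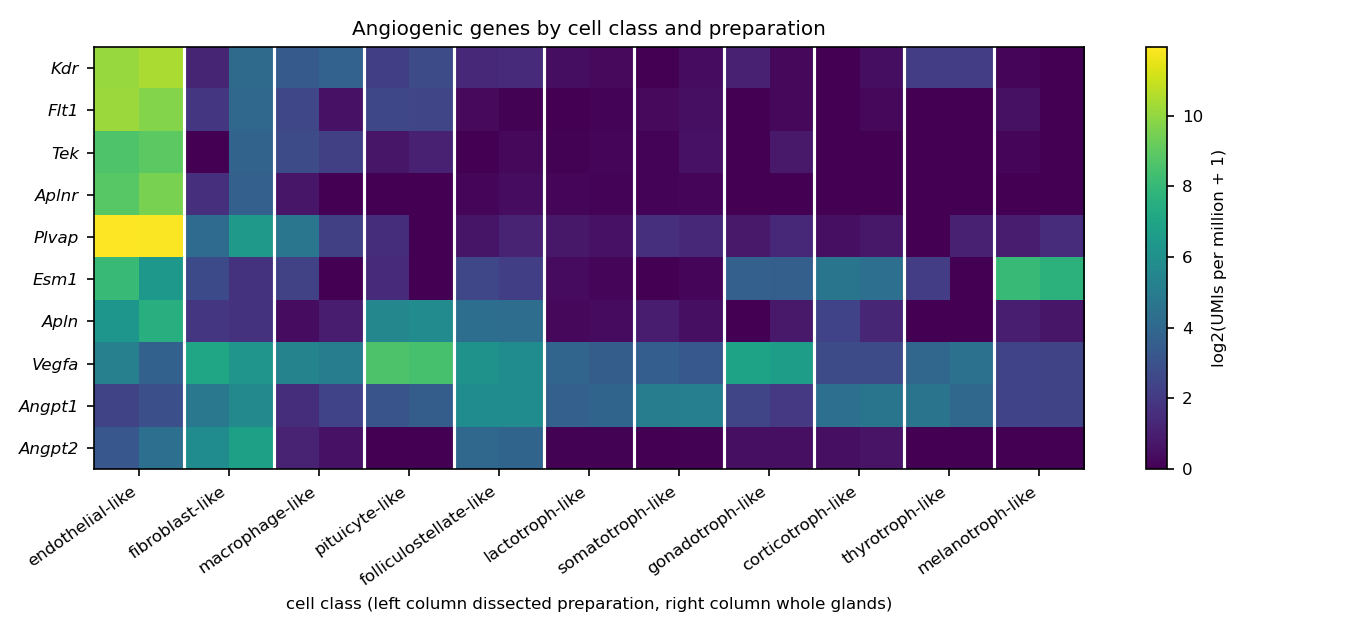
Heat map of the level of each of the 10 genes, as log2(CPM + 1), in the 11 cell classes tested, each with 50 or more cells per preparation. Each class has 1 column for the dissected and 1 for the whole-gland preparation. The receptors and Plvap stand far above every other class in endothelial-like cells, while Vegfa is highest in pituicyte-like and Angpt1 in folliculostellate-like cells.

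Summed per class and preparation, 8 of the 10 genes were called higher in endothelial-like cells than in the mean of the other 10 classes (edgeR's quasi-likelihood test, Benjamini-Hochberg adjusted p under 0.05 and a log2 fold change of at least 1). These were Kdr, Flt1, Tek, Aplnr, Plvap, Apln, Esm1 and Angpt2, with adjusted p from 1.2e-27 to 4.9e-10. Angpt1 was lower, with a log2 fold change of -1.52 (SE 0.26, adjusted p = 1.9e-05), and Vegfa did not pass the size threshold (-0.59, SE 0.19, adjusted p = 0.0083). Vegfa was called lower without the posterior library (-1.28) and without endothelial-like cells holding mural or fibroblast markers (-2.05). In the same comparison 38.3% of the 14766 genes tested were called, so being called is by itself common here. The size is given by the levels, because sums of 0 UMIs in other classes leave the fitted fold of 8 of the genes dependent on a prior count.

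Outside the endothelium, the highest receptor levels were those of fibroblast-like cells in the whole-gland preparation: Kdr 16.5, Flt1 15.3, Tek 12.9, Aplnr 11.8 and Plvap 84.7 CPM. In the dissected preparation the same class held 1.35, 2.71, 0, 2.03 and 16.9 CPM, so the preparations differed several-fold. All 5 genes were called higher in fibroblast-like cells than in the remaining classes, where 23.2% of genes were called. Macrophage-like cells were called higher for Kdr, Flt1, Tek and Plvap, against 36.2% of genes called, at levels of 0.482 to 24.4 CPM. Pituicyte-like cells were called higher for Flt1, at 5.07 and 4.67 CPM, against 28.7% of genes called. That call was kept in 12 of 13 alternatives. The endothelial markers summed to 242 to 1388 CPM in the fibroblast-like cells of each library, with 3 of 9 at 0 in the anterior library, and their part in these calls was not tested.

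Vegfa (ENSRNOG00000019598) was highest in pituicyte-like cells, named for the glial cells around the nerve endings of the neural lobe. Its level there was 393 CPM (95% interval 379.7 to 406) in the posterior library, and 338 and 378 CPM in the whole-gland lanes. Gonadotroph-like cells held 119 CPM in the dissected and 99.1 CPM in the whole-gland preparation, and fibroblast-like cells 133 and 75.3 CPM. Folliculostellate-like cells, the non-hormonal network cells of the anterior lobe, held 67.3 and 55.4 CPM, and the endothelial-like cells themselves 35.8 and 12.1 CPM. Hormone cells other than gonadotroph-like cells lay between 4.22 and 20.9 CPM.

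Against the remaining classes Vegfa was called higher in pituicyte-like cells, by 3.75 on the log2 scale (SE 0.10, adjusted p = 2.0e-20, edgeR), where 28.7% of genes were called. Gonadotroph-like cells were higher by 2.0 (SE 0.12, adjusted p = 6.9e-13, edgeR; 18.9% of genes called) and fibroblast-like cells by 1.89 (SE 0.16, adjusted p = 6.3e-10, edgeR). Folliculostellate-like cells came to 0.99 (SE 0.11, adjusted p = 3.5e-08, edgeR), just under the size threshold, in a comparison that called 24.3% of genes. Under 8 of the alternatives the same value was at or above 1, with a highest value of 1.29 under the stricter cell filter. Vegfa was lower in melanotroph-like, corticotroph-like, somatotroph-like and thyrotroph-like cells, in comparisons that called 19.0%, 18.2%, 20.8% and 13.4% of genes.

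In the order of mean levels, pituicyte-like cells exceeded gonadotroph-like cells by 1.59 (SE 0.14, adjusted p = 9.3e-10, edgeR), in a pair that called 34.9% of genes. Gonadotroph-like and fibroblast-like cells could not be ordered, with a difference of 0.10 (SE 0.18, adjusted p = 0.69, edgeR). Fibroblast-like cells exceeded folliculostellate-like cells by 0.81, which passed the p threshold and not the size threshold. Of the 100 neighbouring pairs over all 10 genes, 21 were called, and between 11.6% and 45.8% of all genes were called in a pair.

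The classes holding most Vegfa RNA differed between libraries, and their shares of its UMIs differed from their shares of cells. Pituicyte-like cells carried 3487 of the 4594 Vegfa UMIs of the posterior library (75.9%, exact 95% interval 74.6 to 77.1) and were 28.7% of its cells. In the anterior library folliculostellate-like cells carried 34.5%, lactotroph-like cells 29.0% and gonadotroph-like cells 19.1% of Vegfa UMIs. Under the stricter cell filter (at least 2000 UMIs and 800 genes, at most 10% mitochondrial UMIs) the order changed, to 19.2%, 46.9% and 7.83%. Lactotroph-like cells were 40.5% of that library, at a low level of 13.8 CPM, while gonadotroph-like cells were 3.6% of it. The endothelial-like share was 0.664% to 1.68% in the 4 libraries. The pituicyte-like share in the posterior library was 29.8% under the stricter cell filter, which kept 86 of the 1100 pituicyte-like cells.

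**Figure D2:**
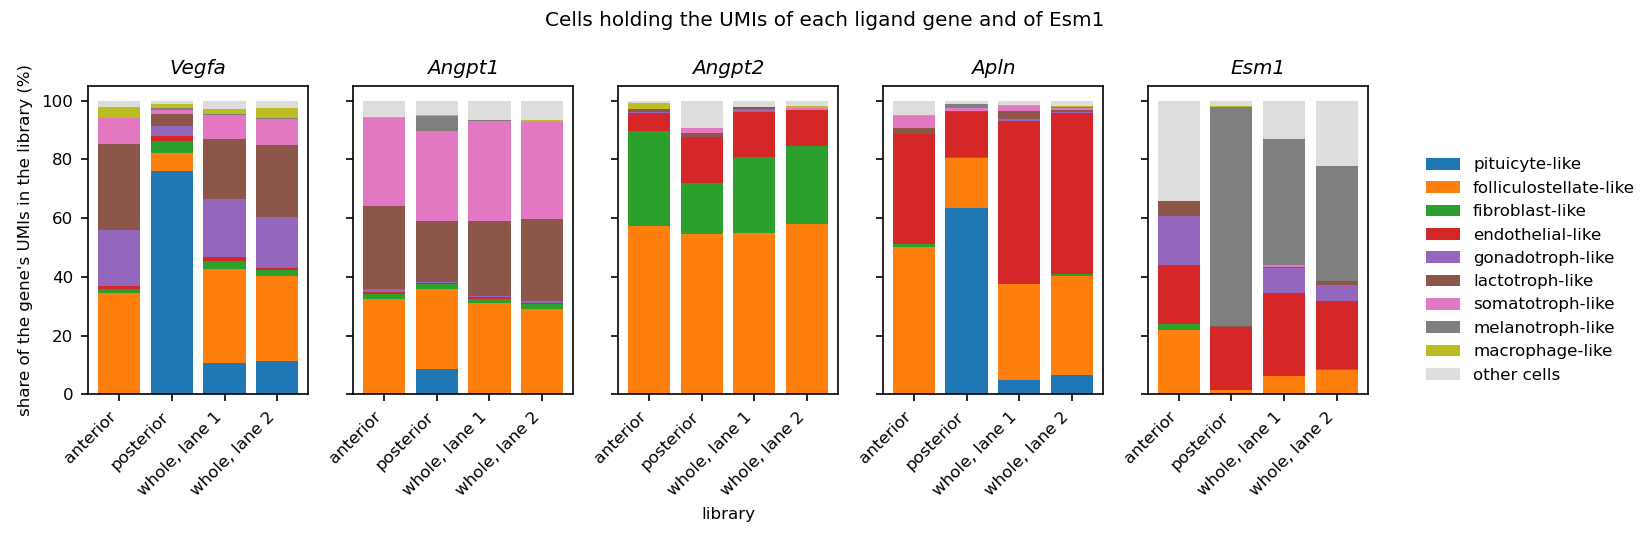
Share of each gene's UMIs (percent) that lay in each cell class, for Vegfa, Angpt1, Angpt2, Apln and Esm1 in each of the 4 libraries. Pituicyte-like cells hold 75.9% of posterior Vegfa UMIs, and melanotroph-like cells 74.4% of posterior Esm1 UMIs.

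Angpt1, the activating ligand of the receptor encoded by Tek, was highest in folliculostellate-like cells, at 55 CPM in the dissected and 56.0 CPM in the whole-gland preparation. Somatotroph-like cells, which make growth hormone, held 31.2 and 35.2 CPM, and fibroblast-like cells 26.4 and 48.2 CPM. Endothelial-like cells were low in every library, from 2.22 CPM in the posterior library to 8.55 CPM in the anterior library. Called higher were folliculostellate-like cells (2.23, SE 0.10, adjusted p = 1.1e-15, edgeR), somatotroph-like cells (1.84, SE 0.10, adjusted p = 1.5e-13, edgeR) and fibroblast-like cells (1.53, SE 0.22, adjusted p = 3.2e-06, edgeR). Fibroblast-like and somatotroph-like cells did not differ beyond their spread (-0.27, SE 0.20, adjusted p = 0.25, edgeR). In the anterior library folliculostellate-like cells held 32.5%, somatotroph-like cells 29.9% and lactotroph-like cells 28.3% of Angpt1 UMIs, so no single class held most of it. The folliculostellate-like share was 10.5% under the stricter cell filter.

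Angpt2 was far scarcer, with 64 to 215 UMIs per library. Its highest level was in fibroblast-like cells, at 54.8 CPM in the dissected and 109 CPM in the whole-gland preparation. By library it was 160.0 CPM in the anterior, 10.6 in the posterior, and 148 and 82.1 in lanes 1 and 2 of the whole gland. The class was mixed: when it was clustered again, a group of 135 cells had no Angpt2 UMI, a group of 88 cells led by pericyte genes held 130.3 CPM and a group of 42 cells 194 CPM. Folliculostellate-like cells followed at 14.7 and 13.3 CPM, and endothelial-like cells, a known source of ANGPT2, at 8.40 and 19.6 CPM. Fibroblast-like cells exceeded folliculostellate-like cells by 2.51 (SE 0.27, adjusted p = 1.3e-07, edgeR), in a pair that called 21.2% of genes. Folliculostellate-like and endothelial-like cells differed by 0.12 (SE 0.30, adjusted p = 0.76, edgeR), a difference well inside its error. Folliculostellate-like cells carried 54.7% to 58.1% of Angpt2 UMIs in each library. In the anterior library that share was 57.2%, and it was 37.2% under the stricter cell filter, 68.2% with doublets kept and 67.9% at the coarser clustering. Pituicyte-like, melanotroph-like and thyrotroph-like cells had no Angpt2 UMI in either preparation.

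Apln was the ligand with the highest level in the endothelium itself. Endothelial-like cells held 125 CPM in the anterior library, 52.7 in the posterior library, and 160.1 and 206 in the whole-gland lanes, with the posterior library lowest. Pituicyte-like cells held 44.6 and 53.7 CPM in the dissected and whole-gland preparations, and folliculostellate-like cells 18.7 and 18.1 CPM. Endothelial-like cells exceeded pituicyte-like cells by 1.26 (SE 0.23, adjusted p = 4.5e-05, edgeR; 43.7% of genes called), and these exceeded folliculostellate-like cells by 1.44 (SE 0.24, adjusted p = 2.5e-05, edgeR; 30.1% of genes called). Where the RNA lay depended on the library. Endothelial-like cells carried 37.4% of Apln UMIs in the anterior library and 55.4% and 54.9% in the whole-gland lanes, but 15.2% in the posterior library, where pituicyte-like cells carried 63.6%. Under the stricter cell filter the posterior pituicyte-like share of Apln was 22.1% and the anterior endothelial-like share 58.7%. Aplnr had no UMI in pituicyte-like cells.

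Esm1 (ENSRNOG00000010797) was abundant both in melanotroph-like cells, named for the hormone cells of the intermediate lobe, and in endothelial-like cells. Melanotroph-like cells held 265 CPM in the posterior library and 276 and 145 CPM in the whole-gland lanes, with an Esm1 UMI in 62.7% to 73.6% of cells. Endothelial-like cells held 40.6 CPM in the anterior library, 379 in the posterior library, and 85.7 and 73.2 in the whole-gland lanes, so the posterior library stood alone. Corticotroph-like cells, which share the Pomc precursor with melanotrophs, followed at 24.2 and 19.4 CPM, while lactotroph-like cells had 0.292 and 0.106 CPM. Esm1 was called higher in melanotroph-like, endothelial-like, corticotroph-like and gonadotroph-like cells, and lower in lactotroph-like, somatotroph-like and pituicyte-like cells, where 20.7%, 20.8% and 28.7% of genes were called. Melanotroph-like cells carried 74.4% of Esm1 UMIs in the posterior library and endothelial-like cells 21.3%. The fitted difference of melanotroph-like over endothelial-like cells was 1.08 (SE 0.20, adjusted p = 4.1e-05, edgeR; 45.8% of genes called). It was taken after the fit's scaling between sums, beside mean levels of 236 and 172 CPM. That call was lost without the anterior library (0.86, adjusted p = 0.056, edgeR), without whole-gland lane 1 (0.83), without globin-positive endothelial-like cells (0.96) and in DESeq2 (1.17, adjusted p = 0.099), so the order of these 2 classes is not settled.

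**Figure D3:**
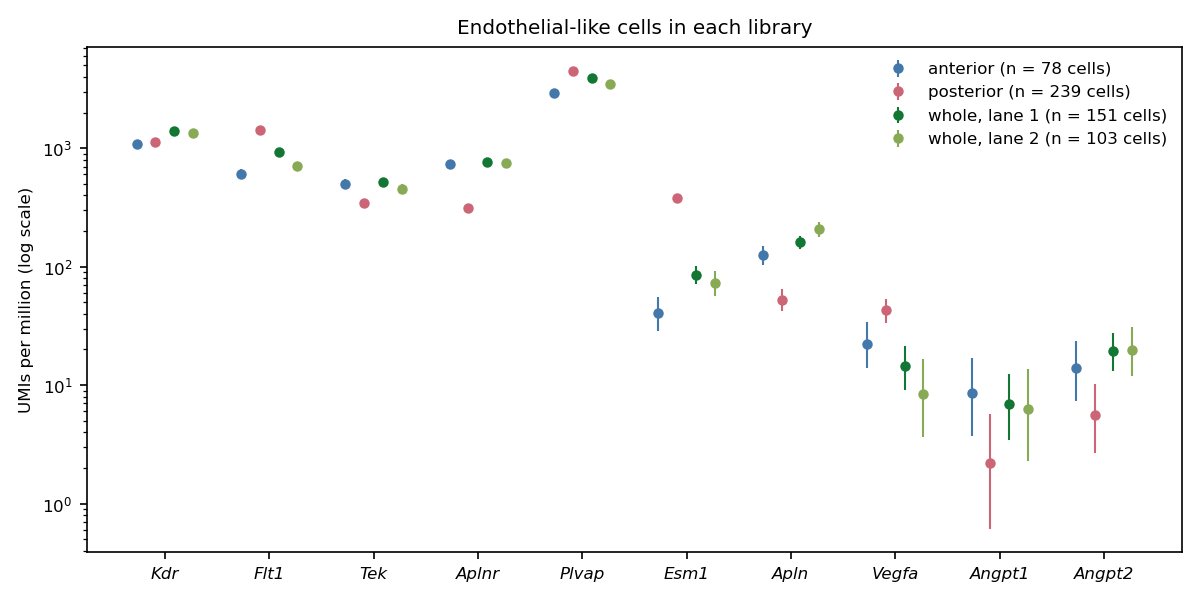
Level of each of the 10 genes in endothelial-like cells (CPM, log scale) in the anterior library, the posterior library and the 2 whole-gland lanes, with exact 95% Poisson intervals that cover counting error only. Esm1 and Flt1 are highest in the posterior library, and Aplnr, Tek and Apln are lowest there.

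The endothelial-like cells divided into groups along several of the genes. They were clustered again without the 10 genes and without the pathway genes described below, and the resulting groups were named after their values were seen. A Ramp3-high group of 181 cells held Ramp3, a subunit of calcitonin-family receptors, at 866 CPM, and a Lyve1-high group of 247 cells held Lyve1, a hyaluronan receptor, at 648 CPM. Another group of 88 cells held mural and fibroblast RNA (Pdgfrb at 268 CPM, Col3a1 at 1139 CPM), and 55 cells fell in groups under the cell minimum. Of the posterior library's endothelial-like cells 63.2% were Ramp3-high, against 2 of 78 cells in the anterior library and 12.6% and 8.74% in the whole-gland lanes. Lyve1-high cells were 57.7% of the anterior, 16.3% of the posterior, and 64.2% and 64.1% of the whole-gland endothelial-like cells. Their median depth was 7019 UMIs, against 3789 in the Ramp3-high group.

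Esm1 was the one of the 10 genes that differed most between them. In Ramp3-high cells it stood at 549.6 CPM in the posterior library, 486 and 265 in the whole-gland lanes, while Lyve1-high cells held 68.3 in the anterior library, 54.3 in the posterior library, and 73.0 and 68.9 in the whole-gland lanes. Each Ramp3-high value exceeded each Lyve1-high value. The posterior Ramp3-high level came from 151 cells of 1 lane, and the whole-gland levels from only 19 and 9 cells on 2 lanes of 1 suspension. In the tests of these groups the whole-gland Ramp3-high sum held those few cells alone. Ramp3-high exceeded Lyve1-high cells by 2.72 (SE 0.28, adjusted p = 2.8e-08, edgeR), in a comparison chosen after seeing the data that called 6.27% of 14381 genes. Thinned to 2000 UMIs per cell, 33.8% of Ramp3-high and 2.86% of Lyve1-high cells of the posterior library had an Esm1 UMI, against 41.7% and 23.1% without thinning. Relative to the other endothelial groups, the Ramp3-high group scored highest for markers of melanotrophs, the class that held most posterior Esm1 UMIs. Whether melanotroph RNA added to the Esm1 difference was not tested.

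The receptors split in both directions. Flt1 was at 1829 CPM in posterior Ramp3-high cells and 2528 and 1990.4 in the whole-gland lanes, against 782 to 969.5 in Lyve1-high cells over the 4 libraries. Its difference was 1.08 (SE 0.16, adjusted p = 2.5e-05, edgeR), and the call was lost without whole-gland lane 1 (0.87) and in DESeq2 (1.25, adjusted p = 0.095). Aplnr ran the other way, with 268, 304 and 431 CPM in Ramp3-high cells and 644 to 996 CPM in Lyve1-high cells, and differed by -1.51 (SE 0.18, adjusted p = 1.2e-06, edgeR). Apln, its ligand, was also lower in Ramp3-high cells, at 48.6 to 66.3 CPM against 93.1 to 253, by -1.47 (SE 0.39, adjusted p = 0.013, edgeR). That call rested on few UMIs and was lost under the stricter cell filter, without the anterior library, without the posterior library, without whole-gland lane 1 and in DESeq2 (values from -2.24 to -1.28). The calls of Esm1 and Aplnr were kept under each alternative run.

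Kdr and Plvap were not called between the groups. Kdr differed by -0.35 (SE 0.14, adjusted p = 0.16, edgeR) and Plvap by 0.31 (SE 0.30, adjusted p = 0.67, edgeR), with Plvap at 3993 to 5805 CPM in all 7 values of both groups. Tek was 199 to 449.7 CPM in Ramp3-high and 560.3 to 626 CPM in Lyve1-high cells, a difference of -0.74 (SE 0.20, adjusted p = 0.013, edgeR) that passed the p threshold and not the size threshold. Vegfa had 5 UMIs in Ramp3-high cells, all in the posterior library, and 38 in Lyve1-high cells, 24 of them in the posterior library. Against the mean of all other groups, Ramp3-high cells were called for 3 of the 10 genes (Esm1 and Flt1 higher, Vegfa lower) where 3.85% of genes were called, and Lyve1-high cells for 4 (Aplnr, Apln and Tek higher, Esm1 lower) where 7.57% were called. The Vegfa call rested on 5 UMIs. It was lost without the anterior library, without the posterior library and with no preparation term, and the value changed sign with doublets kept and without cells holding mural or fibroblast markers. The Ramp3-high call of Flt1 was lost without whole-gland lane 1 (0.98) and in DESeq2 (1.34, adjusted p = 0.095). The Lyve1-high call of Tek was lost in 4 of 12 alternatives: with doublets kept (0.99), under the stricter cell filter (just under 1), without cells holding mural or fibroblast markers (0.58, adjusted p = 0.13, edgeR) and in DESeq2 (1.04, adjusted p = 0.42). The Lyve1-high call of Apln was lost under the stricter cell filter (just under 1), without the anterior library (1.15, adjusted p = 0.096, edgeR) and in DESeq2 (1.11, adjusted p = 0.19), and that of Esm1 without the posterior library (-0.96, adjusted p = 0.10, edgeR). Since the groups were made from other genes of the same cells, these tests describe the groups and do not establish them as types. Mural or fibroblast markers were found in 38.1% of Ramp3-high and 12.1% of Lyve1-high cells. Without those cells Esm1 and Aplnr were still called in the same directions.

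**Figure D4:**
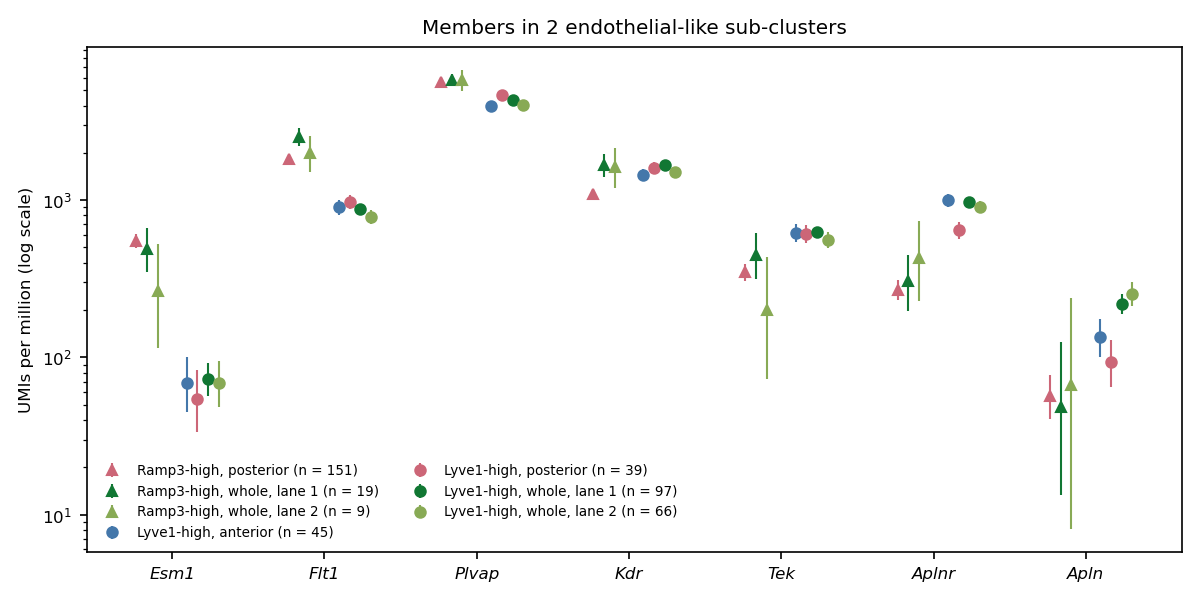
Level of the genes (CPM, log scale) in Ramp3-high and Lyve1-high endothelial-like cells, 1 point per library with enough cells. Esm1 and Flt1 lie higher in Ramp3-high cells and Aplnr and Apln lower, while Kdr and Plvap overlap or nearly overlap.

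Posterior and anterior endothelial-like cells come from 1 library each, so their comparison has no test and its intervals cover counting error only. Over all endothelial-like cells the posterior to anterior ratio was 9.33 for Esm1 (95% interval 6.73 to 13.3), 2.32 for Flt1 (2.12 to 2.54), 1.53 for Plvap (1.46 to 1.60) and 1.04 for Kdr (0.963 to 1.12). It was 0.685 for Tek, 0.426 for Aplnr, 0.421 for Apln, 0.399 for Angpt2 on 10 posterior and 13 anterior UMIs, and 0.260 for Angpt1 on 12 UMIs. In all, 6 of the 10 genes differed at least 2-fold, against 17.4% of the 11245 genes with 10 or more UMIs. Within Lyve1-high cells, 39 posterior and 45 anterior, the ratio was 0.794 for Esm1 (0.425 to 1.47), 1.08 for Flt1 (0.929 to 1.25), 1.10 for Kdr (0.983 to 1.24) and 0.646 for Aplnr (0.548 to 0.760). There the posterior excess of Esm1 and Flt1 was not seen, and 11.4% of all genes were past 2-fold. Vegfa was the exception, with 24 UMIs in posterior and 4 in anterior Lyve1-high cells (ratio 5.90, interval 2.03 to 23.4).

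RNA of other cells moved with this comparison. Erythroid markers summed to 14825 CPM in anterior and 741 CPM in posterior endothelial-like cells, with 4 of 4 above 0 in both. Lactotroph markers summed to 31710 and 2410 CPM. Mural markers summed to 720 and 2837 CPM (10 of 10 above 0 in both), and fibroblast markers to 623 and 2178 CPM (5 of 6 above 0, Col1a2 at 0). Markers of pituicytes, the class with the highest Vegfa level, summed to 2.1 CPM in anterior cells, where 7 of 8 were at 0, and 145 CPM in posterior cells. Without globin-positive cells the ratio was 5.90 for Esm1 and 2.01 for Flt1. Without cells holding mural or fibroblast markers it was 6.59 for Esm1, 2.27 for Flt1, 0.561 for Aplnr, 1.13 for Vegfa and 0.944 for Angpt2, and 3 genes were past 2-fold. The part of this RNA in the remaining differences was not tested.

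**Figure D5:**
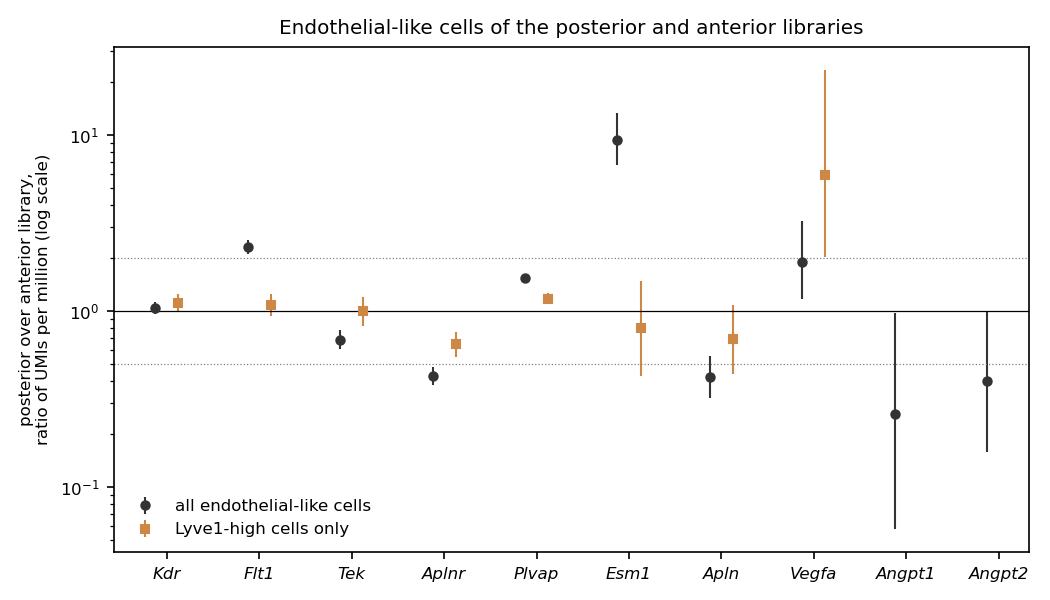
Posterior to anterior ratio of each gene's CPM (log scale) in all endothelial-like cells and in Lyve1-high cells alone, with exact 95% intervals for counting error. The Esm1 ratio is 9.33 over all cells and 0.794 within Lyve1-high cells.

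The wider pathways were read from lists of related genes, beside the 38.3% of all genes called in this comparison. Of the VEGF family and its coreceptors 4 of 6 tested genes were higher and 1 lower in endothelial-like cells, led by the coreceptors Nrp1 at 631 and 458 CPM and Nrp2 at 198 and 285 CPM and by the lymphatic-associated receptor Flt4 at 66.1 and 91.2 CPM (dissected and whole-gland preparation). Of 7 genes around the angiopoietin receptors 5 were higher and none lower, among them Ptprb, a phosphatase that restrains the receptor encoded by Tek, and the orphan receptor Tie1. All 13 tested tip cell genes and all 13 tested caveolar and fenestrated capillary genes were higher, for example Igfbp3 (1559 and 755 CPM), Col4a1 (791 and 719), Rgcc (1394 and 2267) and Igfbp7 (4347 and 3535). Of 16 barrier endothelium genes 6 were higher and 3 lower. Sox17, an endothelial transcription factor, was among the higher, and so was the transporter gene Slco1a4, at 46.0 and 33.7 CPM. The glucose transporter Slc2a1, a mark of the blood-brain barrier, was not called, at 20.8 and 15.3 CPM (-0.39, SE 0.19, adjusted p = 0.079, edgeR).

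The hypoxia list gave 4 higher and 2 lower of 13, a share near the 38.3% of all genes, and its widely expressed members Ldha (0.38) and Ddit4 (0.83) stayed under the size threshold, while Epas1, the endothelial hypoxia-inducible factor, was higher at 911 and 562 CPM. Antiangiogenic genes were also high in the endothelium, 10 of 11 higher and none lower, with Sparc at 3588 and 3373 CPM. The fitted median log2 difference was 8.16 for the 10 genes, 4.80 for the tip cell list and 5.69 for the caveolar list. It was 0.88 for the barrier list and 0.38 for the hypoxia list, beside 0.10 over all genes tested. With sums of 0 UMIs set to 3 counts, the medians in the same order were 7.45, 4.13, 5.85, 0.42 and 0.66. These last values come from CPM without the fit's scaling, and no such median was taken over all genes.

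Between the endothelial groups, where 6.27% of all genes were called, fewer list members were called. Ramp3-high cells were higher for Igfbp3 (3171 and 2802 CPM against 438 and 688, a difference of 2.25), Plpp3 (1.60), Nrp1 (1.08), Epas1 (1.22) and Thbs1, an antiangiogenic matrix protein (943 and 516 CPM against 103 and 57.7, a difference of 3.24). Lyve1-high cells were higher for Nrp2 (-1.29), Flt4 (-1.64) and Nr2f2, a transcription factor of venous endothelium, at 438 and 448 CPM against 15.5 and 17.8. Aqp1, a water channel, ran the other way at 2226 and 2162 CPM against 9.12 and 18.6. Over the lists, 5 of 13 tip cell genes were higher and 1 lower in Ramp3-high cells, 5 of 13 caveolar genes were higher and none lower, and 1 of 16 barrier genes was higher, near the share of all genes.

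Across the 22 sums of class and preparation, genes were ranked by the Pearson correlation of log2(CPM + 1), given as a description over sums that share libraries. Vegfa was most like Pla2g16 (r = 0.922), Oat (0.915), Hist2h4a (0.900), St6gal1 (0.898) and Cdkn1c (0.886). Kdr was most like Tek (0.963), then Nostrin, Grap and She (0.952 to 0.953). Plvap was most like Cdh5 (0.988), itself an endothelial marker used to name the class, then Fam167b, Exoc3l2, Adgrf5 and Tie1 (0.978 to 0.983).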

How the data were processed

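Single-cell RNA libraries of 4 samples were made with a droplet 3′ kit, per the labels' protocols. The deposited matrix holds UMI counts per gene and barcode, made with Cell Ranger 3.1 per the submitters' processing notes; the genome build and annotation are not given in the sources used here. Barcodes were assigned to samples by the suffix in the labels.

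Barcodes passed with 1000 or more UMIs, 500 or more genes and a mitochondrial share of 20% or less (20381), and Scrublet removed 588 doublets. With scanpy 1.11.5, 2000 variable genes, 30 components, 15 neighbours and Leiden resolution 1.0, clusters were named from marker lists; the 10 genes were not markers. UMI counts were summed per class and preparation (22 sums of 11 classes; 26 sums with the endothelial-like groups). In the dissected preparation hormone and folliculostellate-like cells came from the anterior library, pituicyte-like and melanotroph-like cells from the posterior library, other classes from both. Sums were tested with edgeR 4.0.16 (quasi-likelihood, TMM, class and preparation terms, residual df 10 and 12) and Benjamini-Hochberg adjustment over all genes tested. DESeq2 1.42.0 was an alternative. After the fits, the endothelial-like comparison was also run on simulated counts with known changes, drawn with the fitted spread. It called 54 of 100 genes changed 2-fold, 100 of 100 changed 4-fold and 4 of 12783 unchanged genes. The changed genes were drawn from those with at least 10 expected counts in every sum. No other difference between classes or preparations was simulated. These counts therefore do not cover genes with few or no UMIs in some classes. The preparation term is a block. Whole-gland sums share 1 cell suspension, while dissected sums come from the anterior pool, the posterior pool or both. The term therefore does not remove differences between the anterior and posterior libraries. In the dissected preparation, classes taken from different libraries differ in library as well as in class.

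CPM is a gene's share of the UMIs of the summed cells, without TMM scaling. Fitted differences use TMM-scaled sums, so their size can differ from CPM ratios and their sign can differ between classes close in CPM. For Angpt1, fibroblast-like and somatotroph-like cells had mean levels of 37.3 and 33.2 CPM and a fitted difference of -0.27. Intervals are exact 95% Poisson or binomial intervals and cover counting error only. Ratios of the posterior and anterior libraries have no test, and a gene counts as different past 2-fold. Genes named beside the 10 are, per list, the 3 with the highest mean CPM in endothelial-like cells (hypoxia list: over classes) and the 5 most correlated with Vegfa, Kdr and Plvap. Slc2a1, Nr2f2 and the others named between groups come from that rule; Ramp3, Lyve1, Pdgfrb and Col3a1 were chosen after their values were seen. Some genes and 1 list that this rule would name are not reported here. The 10 genes and all lists were chosen with earlier results of these data known.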

Additional observations from a re-analysis of the deposited data

How the results depend on the processing

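Alternatives covered DESeq2, no filter on low counts, no preparation term, doublets kept, a stricter cell filter, coarser or finer clustering, dissected sums over both libraries, and each library left out in turn. Leaving out endothelial-like cells with globin UMIs or with mural or fibroblast markers, the Ramp3-high against Lyve1-high comparison, the Lyve1-high comparison of lobes and the refitted neighbouring pairs were chosen after seeing the data. The count of genes called in endothelial-like cells stayed between 5244 and 6392. With no replicate block for the preparation it was 5648 against 5653. The counts of the endothelial groups fell when a library was left out, to 175 to 543 from 553 (Ramp3-high against the others), 356 to 1049 from 1088 (Lyve1-high against the others) and 259 to 885 from 902 (Ramp3-high against Lyve1-high). Without cells holding mural or fibroblast markers the Lyve1-high count was 684, and 3 in place of 6 of the genes differed at least 2-fold between lobes. The pituicyte-like share of posterior Vegfa UMIs was 29.8% under the stricter filter. Vegfa in Ramp3-high cells, with 0 UMIs in the whole-gland lanes, changed sign: 0.074 and 0.12 against the others, and 1.23 and 0.12 against Lyve1-high cells, with doublets kept and without cells holding mural or fibroblast markers. Vegfa was called lower in endothelial-like cells without the posterior library (-1.28) and without cells holding mural or fibroblast markers (-2.05). Without the posterior library, Ramp3-high, melanotroph-like and pituicyte-like cells have the whole-gland sum alone, assumed to vary like the other sums. The causes were not tested. Of the single-gene values, 566 were the same, 25 lost and 10 gained a call, 4 were reversed and 26 untested values moved. A tested value was the same if it kept direction and call. An untested ratio or share has no call and was the same if it stayed inside the main interval. Depth limits Angpt1, Angpt2 and Vegfa in endothelial-like cells, at 4 to 77 UMIs per library.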

Other observations

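The groups of the fibroblast-like class differed in their levels of Vegfa and Angpt2 when it was clustered again, a choice made after seeing the data. A group of 135 cells led by Pi16, Apod, Cxcl14 and Smoc2 held Vegfa at 194 CPM (95% interval 166 to 226), with 169 UMIs, and had no Angpt2 UMI. A group of 42 cells held Angpt2 at 194 CPM (139.6 to 262) and Vegfa at 50.7 CPM. A group of 88 cells led by the pericyte genes Higd1b, Kcnj8 and Abcc9 held Angpt2 at 130.3 CPM and Angpt1 at 69.2 CPM, against Vegfa at 28.5 CPM. The other two groups carried RNA of other classes. One of 73 cells, with Mt2A, Guca2b and Aldoc among its leading genes and scoring highest for folliculostellate markers, held Vegfa at 112 CPM and Angpt2 at 126 CPM. One of 34 cells, with the macrophage gene C1qa and the growth hormone gene Gh1 among its leading genes, held Vegfa at 48.0 CPM and Angpt2 at 82.3 CPM. These are sums over all libraries with no test between groups. Angpt2 in the fibroblast-like class also differed between libraries, so group and library were not separated.

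Folliculostellate-like cells also differed among themselves, with 3 clusters of 1513, 674 and 633 cells. Angpt2 stood at 18.6, 36.7 and 1.69 CPM, Angpt1 at 68.5, 79.8 and 36.4 CPM, and Apln at 12.9, 17.6 and 26.3 CPM in the same order. The cluster of 633 cells, led by Krt17, was thus lowest for both angiopoietins and highest for Apln. Pituicyte-like cells came as a cluster of 721 cells with Vegfa at 423 CPM and a shallower cluster of 473 cells, at a median of 1938 UMIs, with Vegfa at 157 CPM, while Apln was alike at 45.1 and 47.7 CPM. No test was made between these clusters.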
